A study of Saccharomyces cerevisiae with 2 samples.

Results

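The small subunit processome is the large nucleolar assembly that forms on nascent ribosomal RNA and carries out the first steps of small ribosomal subunit production. The data described here are the transcript ratios of 42 genes for its protein factors in Saccharomyces cerevisiae. They were chosen by name: the UTP proteins, the proteins bound to the U3 small nucleolar RNA, and other factors of the early pre-ribosome. The 42 are part of 6207 open reading frames (ORFs) on the arrays, and all 42 had a value on both arrays, as did 5311 ORFs in all.

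In the processome, the U3 small nucleolar ribonucleoprotein base-pairs with the precursor RNA and holds it for cleavage, while preassembled protein modules, among them UTP-A and UTP-B, bind the precursor in sequence. Helicases, a GTPase and a methyltransferase then remodel the particle. Genes of this assembly are known in yeast for being transcribed together and for falling together when growth slows or stress begins.

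The study compared cells treated with Zymolyase, a mixture of enzymes that breaks down wall glucan, with untreated cells. Both groups were a sho1 mutant of the BY4741 background, a laboratory strain; Sho1 is a membrane sensor of the high-osmolarity glycerol pathway, and every sample, untreated ones included, carried the mutation. Treated cells received 0.8 units per ml for 3 hours in rich medium at 24 °C, and untreated cells came from the other part of the divided culture. RNA of both groups was hybridised together on 2 arrays with swapped dyes, so that treated RNA carried Cy3 on array 1 and Cy5 on array 2. One comment field, that of the untreated channel of array 2, gives the mutant as hog1, against sho1 in all other labels.

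The deposited values are log2 ratios, and the sources used here do not state their direction. Both columns were read as deposited, and a value above 0 is called higher. The description of both records speaks of comparing treated with non-treated samples, so higher may refer to treated cells, but no label states the numerator. Across the 5311 ORFs the arrays had a Pearson r of -0.01 and a Spearman rho of -0.26, so a reading with array 1 turned is given beside the results it changes. SHO1 had no value on either array. Of the genes deleted or disrupted in BY4741, MET17 and URA3 had no value, while HIS3 had -0.24 on array 1 and 0.03 on array 2 and LEU2 had -0.30 and 0.06. A ratio gives no transcript level, so the strain could not be checked further, and fewer cells expressing a gene could not be told apart from less RNA per cell.

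UTP20 (YBL004W) was the only one of the 42 factors that passed the test over all genes, and it was higher. Utp20 is a very large helical-repeat protein that joins the processome and is needed for its early cleavages. On the log2 scale it measured 0.54 on array 1 and 1.42 on array 2, so both arrays lay above 0 but differed by 0.88. The mean was 0.98 ± 0.62 (SD, n = 2 arrays), a 1.97-fold ratio, with a 95% interval of 0.66 to 1.30 and a limma adjusted p of 0.000369. In this test 1 of 42 factors was called higher and 0 lower, against a background of 0.772% of all genes higher and 0.0% lower. The gene had been seen to stand out in earlier results of these data.

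The call for UTP20 depended on how the spread was estimated. Each gene has 1 residual degree of freedom, and the test borrows the spread of all genes. With robust variances, which let genes of unusual spread keep more of their own, the mean was the same and the limma adjusted p was 0.195 (n = 2). With array 1 turned the mean was 0.44 and the limma adjusted p was 0.778 (n = 2). Array 1 alone gave 0.54, for which no test exists. Nothing in the labels assigns the 2 arrays to separate cultures. The p-values therefore reflect only the spread between the 2 records, which may be technical and may be that of means. In the main fit this spread came mostly from all genes, with 23.5 prior degrees of freedom against 1 of the gene itself.

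Set against the other 41 factors, UTP20 stood 0.51 above their median on array 1 and 1.54 above it on array 2. On array 1 it ranked 95 of 5311 ORFs, and 1 other factor, UTP4, was higher. On array 2 it ranked 11 of 5311 and no other factor was higher. The difference between arrays, array 2 minus array 1, was the opposite way round from that of most factors: UTP20 ranked 9 of 5311 by it. The means of the other 41 ran from -0.30 to 0.21, below the lowest mean of any gene past the test, 0.55. The plot of all factors by array shows UTP20 to the right of every other mean.

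**Figure D1:**
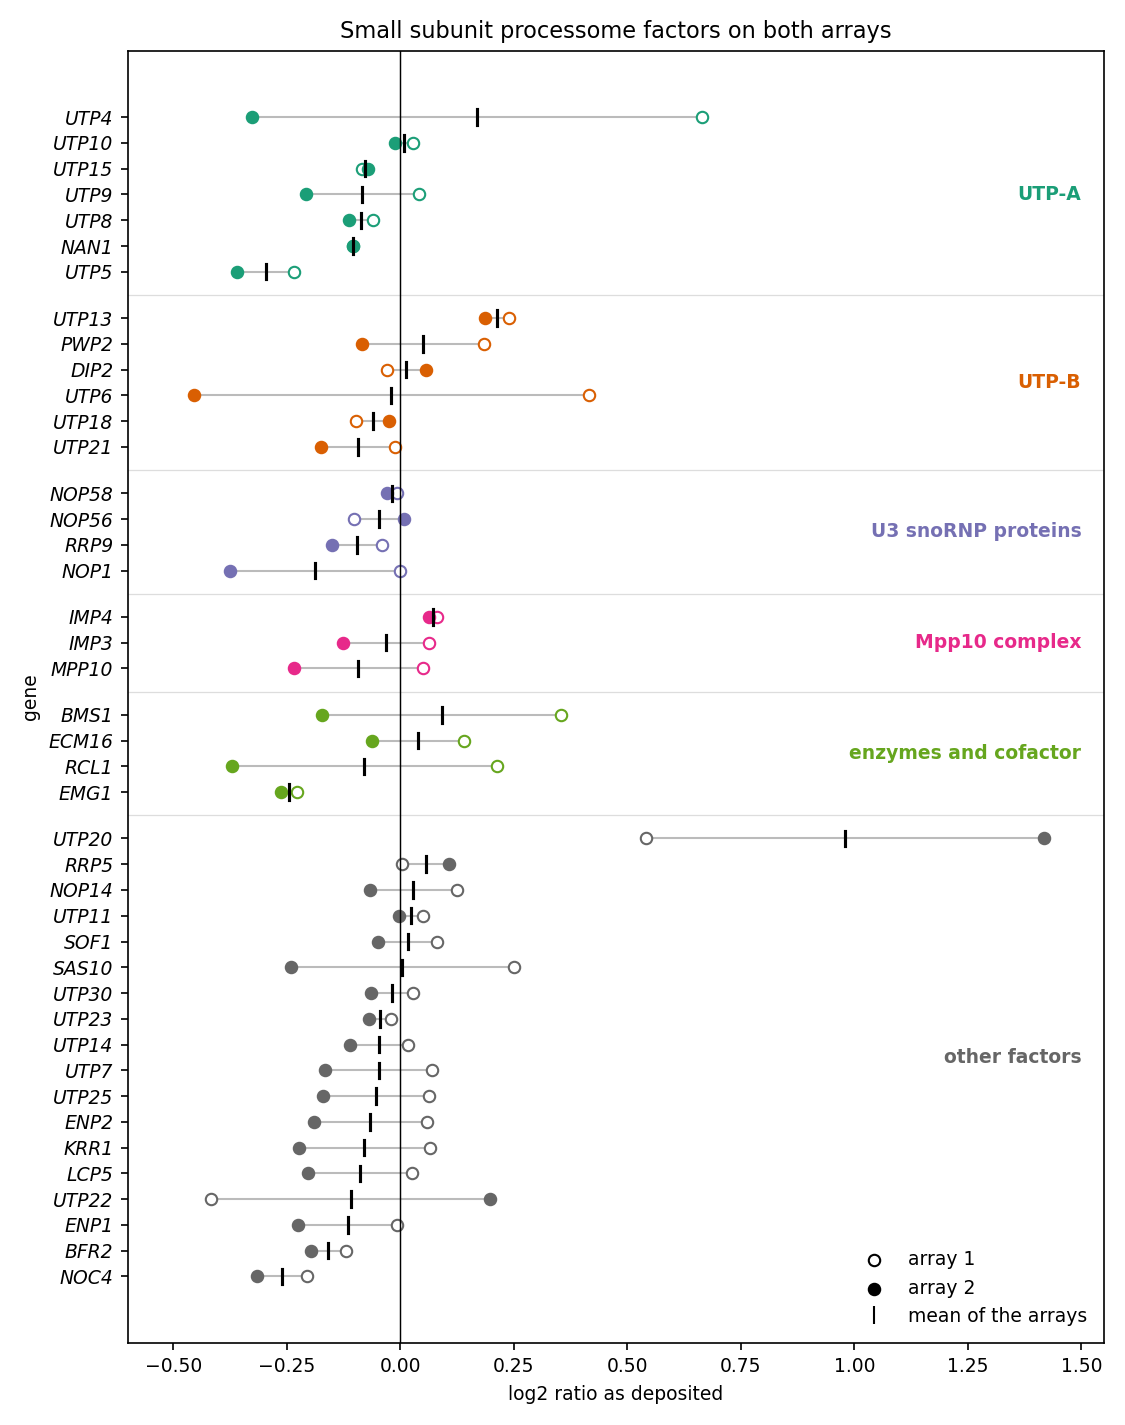
Log2 ratio of each of the 42 factors (x axis, as deposited) by gene (y axis), grouped by module, with open points for array 1, filled points for array 2 and a bar for their mean. UTP20, at 0.54 and 1.42, lies apart from the other means, which run from -0.30 to 0.21, and filled points lie to the left of open ones for 34 of the 42 genes.

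The other 41 factors did not pass the test, and their median was near that of all genes. Their median log2 ratio was -0.05, against -0.03 for all 5311 ORFs, and their quartiles ran from -0.09 to 0.01. The SD of the 41 means was 0.10, and that of all 42 with UTP20 was 0.19. Over all ORFs, where no gene past the test was left out, it was 0.15. Among the 41 factors without UTP20, the lowest bound of a 95% interval was -0.57, for UTP5, and the highest was 0.51, for UTP4. Changes within a factor's own interval were not excluded with 2 arrays. At an unadjusted limma p under 0.05 there were 2 of the 42, UTP20 and UTP5, against a background of 3.6%. By size, 1 of 42 factors, again UTP20, had a mean ratio of 1.5-fold or more and values above 0 on each array, against 0.715% of all genes. On the lower side 0 factors met this rule, against 0.0%.

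The factors had unlike values on the arrays. Their median was 0.03 on array 1 and -0.12 on array 2, while the medians of all ORFs tested were -0.03 and -0.02. On array 1 the values ran from -0.42 to 0.66, and on array 2 from -0.45 to 1.42. In all, 22 of the 42 were above 0 on array 1 and below 0 on array 2, against a background of 29.2%. A further 13 were below 0 on both arrays (background 26.8%), 4 were above 0 on both (background 14.0%) and 3 were below 0 on array 1 and above 0 on array 2 (background 30.1%). Array 2 lay below array 1 for 34 of the 42 factors, against 48.5% of all ORFs. With each array centred on its median, 24 were above 0 on array 1 and below 0 on array 2 (background 30.3%), 9 were below 0 on both (background 19.7%), 6 were above 0 on both (background 19.7%) and 3 were the other way round (background 30.2%). No test of this pattern was made, because the factors were chosen with results of these data known.

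With array 1 turned, the same difference becomes the ratio. In that reading the factors had a median of -0.06, against 0.01 for all ORFs, and 34 of 42 had a mean below 0 against 48.5% of all genes. None of the 42 passed the test with array 1 turned, and none of the 5311 genes did (background 0.0%). At an unadjusted limma p under 0.05 there were 6 of the 42, against 9.4% of all genes: UTP4, UTP6, BMS1, SAS10, RCL1 and UTP22. Whether a negative value then means lower or higher in treated cells depends on which dye is the numerator, which the sources used here do not state.

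**Figure D2:**
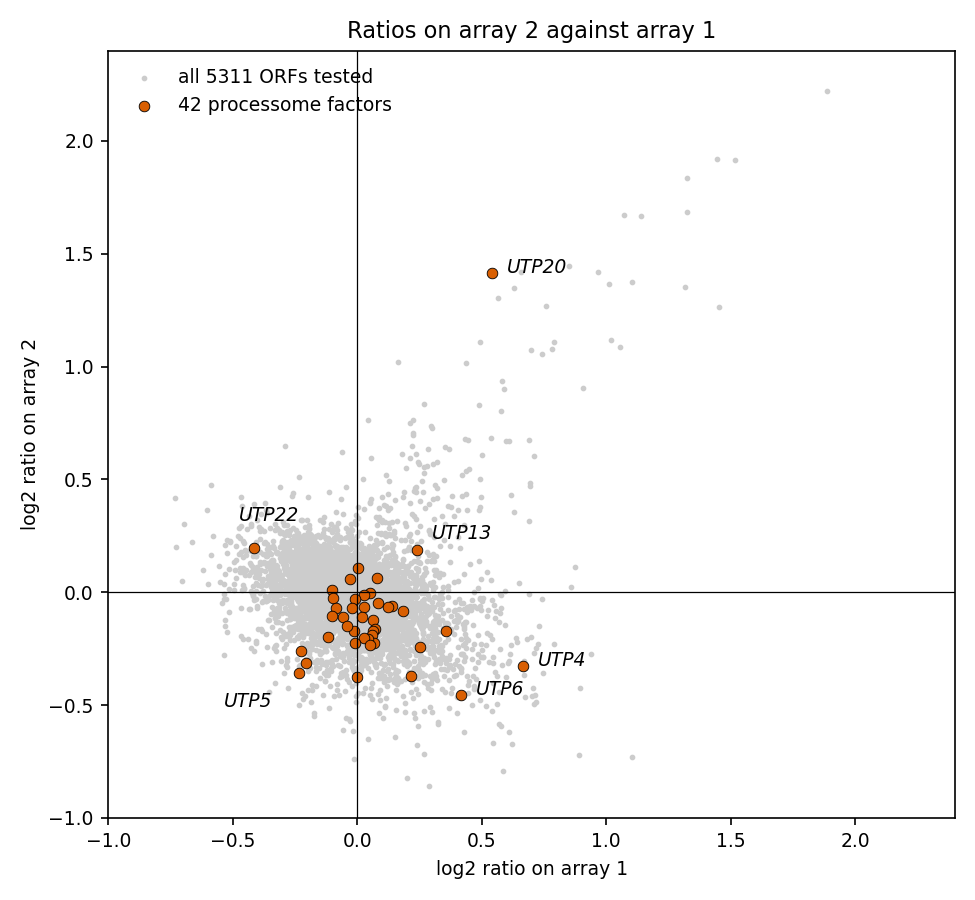
Log2 ratio on array 2 (y axis) against array 1 (x axis) for the 5311 ORFs tested (grey) and the 42 factors (orange). Of the factors, 22 lie in the lower right, above 0 on array 1 and below 0 on array 2, and UTP20 lies in the upper right at 0.54 and 1.42.

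UTP-A is the module that binds the start of the precursor RNA and is also linked to transcription of ribosomal DNA. Its 7 factors had a median of -0.08, with 4 below 0 on both arrays and 0 past the test. UTP5 (YDR398W) had the lowest mean of all 42 factors, with -0.23 on array 1 and -0.36 on array 2. Its mean was -0.30 ± 0.09 (SD, n = 2; limma adjusted p = 1) with a 95% interval of -0.57 to -0.03. UTP4 (YDR324C), a beta-propeller subunit whose human counterpart is cirhin, had 0.66 on array 1 and -0.33 on array 2. That difference, 0.99, was the largest of the 42 factors, and the arrays had opposite signs. NAN1 (YPL126W), also a beta-propeller subunit, had -0.10 on both arrays. UTP10, a long helical-repeat protein, had 0.03 and -0.01, close to 0 on both arrays. The other subunits UTP8, UTP9 and UTP15 had means from -0.09 to -0.08.

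UTP-B follows UTP-A and brings in the U3 particle. Its 6 factors had a median close to 0, at -0.003, and 0 passed the test. UTP13 (YLR222C) had the second-highest mean of the 42 factors, with 0.24 on array 1 and 0.19 on array 2. Its arrays differed by only 0.05, and its mean was 0.21 (n = 2, limma adjusted p = 1). PWP2, a scaffold of the module, had 0.18 on array 1 and -0.08 on array 2. UTP6 (YDR449C), a helical-repeat subunit, had 0.42 on array 1 and -0.45 on array 2. Its mean was -0.02, and its gap between arrays, 0.87, came after that of UTP4 among factors with array 2 below array 1. UTP21 had the lowest mean of the module, with -0.01 and -0.17. DIP2 and UTP18 had means of 0.01 and -0.06.

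NOP1, NOP56, NOP58 and RRP9, grouped here as the U3 particle, had means below 0 in 4 of 4 genes, or 3 of 4 with arrays centred. Their median was -0.07, with 0 past the test. SOF1, also chosen as a U3 protein but counted here among the other factors, had a mean of 0.02. Of all 42 factors 28 had a mean below 0, against a background of 62.6%. NOP1 (YDL014W), the fibrillarin methyltransferase that modifies ribosomal RNA, had 0.0001 on array 1 and -0.37 on array 2. NOP1 was thus below 0 on array 2 only. NOP58, a core scaffold protein of this class of particle, had -0.008 and -0.03, and the related NOP56 and the U3-specific RRP9 had means of -0.05 and -0.09. In the Mpp10 complex, which joins the U3 RNA and the precursor, the 3 genes had a median of -0.03. IMP4 (YNL075W) had 0.08 and 0.06, above 0 on both arrays, while MPP10 had 0.05 and -0.23 and IMP3 0.06 and -0.13.

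The enzymes and their cofactor had the widest gap between arrays of the modules by median, at 0.18 on array 1 and -0.22 on array 2, and 0 of 4 passed. BMS1 (YPL217C), the GTPase of the processome, had 0.36 on array 1 and -0.17 on array 2. RCL1, the partner that Bms1 brings to the particle, had 0.21 and -0.37. ECM16, the helicase also named Dhr1 that releases U3, had 0.14 and -0.06, so these 3 genes were above 0 on array 1 and below 0 on array 2. EMG1 (YLR186W), a methyltransferase of the small subunit RNA, had -0.23 and -0.26, below 0 on both arrays and a mean of -0.24 (n = 2, limma adjusted p = 1).

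Of the remaining 18 factors, 17 without UTP20 had means from -0.26 to 0.06 and 0 past the test. NOC4 (YPR144C), the partner of Nop14, had the second-lowest mean of the 42, with -0.20 on array 1 and -0.32 on array 2. NOP14 itself had 0.12 and -0.07. BFR2 had -0.12 and -0.20, and ENP1, which stays with the particle on its way to the cytoplasm, had -0.008 and -0.22. UTP22 (YGR090W), the subunit that links the processome with casein kinase 2, had -0.42 on array 1 and 0.20 on array 2. It was 1 of 3 factors below 0 on array 1 and above 0 on array 2, with DIP2 and NOP56. RRP5, an RNA-binding factor needed for both subunits, had 0.004 and 0.11, and UTP11 had 0.05 and -0.002. LCP5, KRR1, ENP2, UTP25, UTP7, UTP14, UTP23, UTP30 and SOF1 had means from -0.09 to 0.02. SAS10 had 0.25 on array 1 and -0.24 on array 2.

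UTP20 is also the longest of the 42 genes, at 7482 bp in the R64 annotation, against a median of 1755 bp. Of the 1838 tested genes of up to 1000 bp, 7 passed the test, a share of 0.381%. Of the 76 genes over 5000 bp, 3 passed, a share of 3.95% that includes UTP20 and was not tested against the other. The 76 also count retrotransposon ORFs, such as YBL005W-B at 5269 bp. The other factors over 5000 bp were UTP10, at 5310 bp with a mean of 0.01, and RRP5, at 5190 bp with a mean of 0.06. Across the 42 factors, length on a log scale and mean ratio had a Pearson r of 0.47 and a Spearman rho of 0.29. Without UTP20 the r was 0.27 over 41 factors, and over all 4992 tested genes with a length it was 0.06. Genes are not independent replicates, so these are descriptions.

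The same 3 genes were those past the test among the 16 of 6500 to 8500 bp. The others besides UTP20 were FMP27, a lipid transfer protein gene, at a mean of 2.06, and BPH1, a BEACH domain protein gene, at 1.40; both were chosen after their values were seen. The median of the 16 was 0.05. Longer genes did not all have high ratios: REA1, the dynein-like ATPase of large subunit assembly and the longest gene tested, had a mean of -0.11, DYN1, the dynein heavy chain, 0.02, and VPS13, a lipid transfer protein gene, -0.33. IRA1, a Ras GTPase-activating protein gene, had 0.27 on array 1 and 0.84 on array 2, so that both were above 0 and the mean was 0.55 (n = 2, limma adjusted p = 0.0825), while its paralogue IRA2 had 0.07. The part of gene length in the UTP20 ratio was not tested. Beside UTP20 in the annotation, the histone gene HTA2 had -0.25 on array 1 and 0.04 on array 2, with a mean of -0.11. The retrotransposon ORF YBL005W-B, which has many near-identical copies, had 0.50 on array 1 and -0.03 on array 2, with a mean of 0.24. Neither measured neighbour had a mean as high as that of UTP20, but on array 1 YBL005W-B came near the 0.54 of UTP20.

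**Figure D3:**
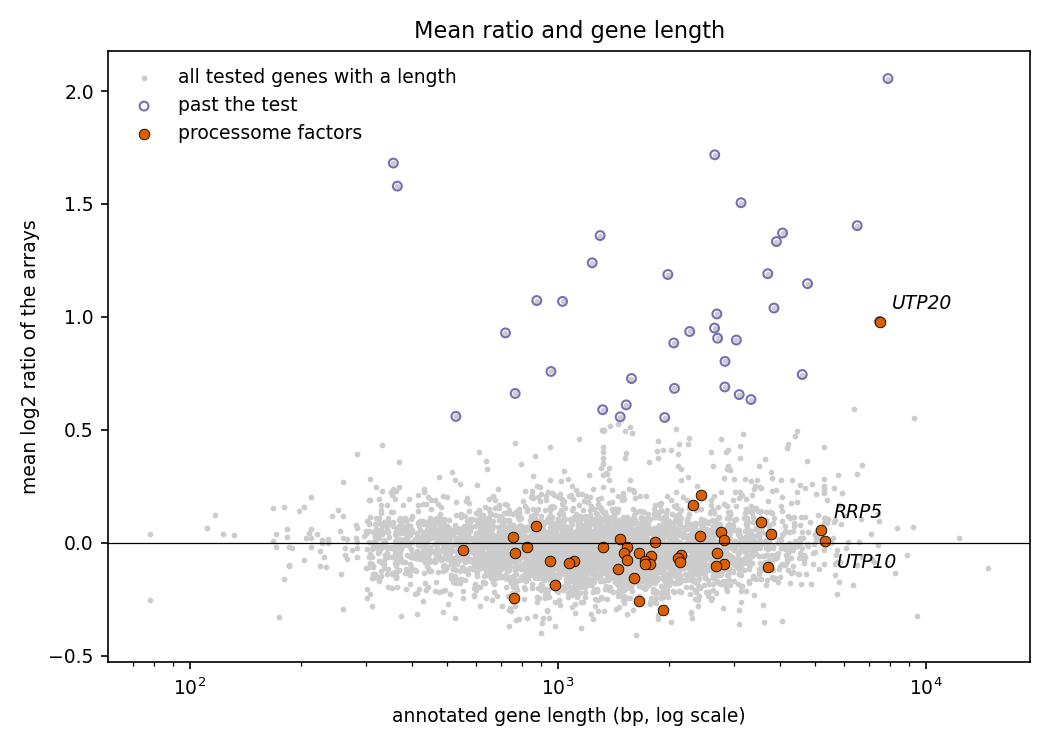
Mean log2 ratio of the arrays (y axis) against annotated gene length in bp (x axis, log scale) for the tested genes with a length (grey), the genes past the test (open circles) and the 42 factors (orange). UTP20, at 7482 bp and 0.98, is the longest and highest factor, while UTP10 and RRP5, both over 5000 bp, lie at 0.01 and 0.06.

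Other genes of ribosome assembly were read from lists of 136 genes, of which 133 had a value on both arrays. Of these, 1 passed the test as higher and 0 as lower, against the same background of 0.772% and 0.0%. That gene was MRD1, which encodes a factor with several RNA-binding domains that acts within the processome. MRD1 (YPR112C) had 0.79 on array 1 and 1.11 on array 2, so both arrays were well above 0. Its mean was 0.95 ± 0.23 (SD, n = 2), a 1.93-fold ratio, with a limma adjusted p of 6.65e-05. Unlike UTP20, MRD1 also passed with robust variances, and with array 1 turned it did not (mean 0.16, n = 2, limma adjusted p = 0.922).

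The other 25 listed processome factors did not pass, and the list of 26 had a median of -0.10. ESF2, a cofactor of the helicase Dbp8, had -0.15 and -0.17, and NOP9, an RNA-binding factor, had -0.15 and -0.14. Casein kinase 2 subunits, 4 genes, had a median of 0.40 on array 1 and -0.35 on array 2. In 3 of the 4 array 2 lay below array 1, while CKB1, a regulatory subunit, had -0.18 on array 1 and -0.05 on array 2. Late small subunit maturation factors had a median mean of -0.03 over 13 genes, and 51 large subunit assembly factors had -0.04, with 0 past the test in either list. In the large subunit list 24 of 51 were above 0 on array 1 and below 0 on array 2, against the background of 29.2%.

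RNA polymerase I genes, which make the precursor RNA, had a median of -0.01 over 13 genes with 0 past the test. RPA14, a small subunit of that polymerase, had -0.20 and -0.43, both below 0, and a mean of -0.31 (n = 2, limma adjusted p = 1). The RNA exosome, which degrades excised spacer RNA, had a median of 0.02 over 12 genes. The box H/ACA particle, which guides pseudouridylation, had -0.03 over 4, and 10 regulators of ribosome genes had -0.04. None of these lists held a gene past the test. Of the 10 regulators, 5 were below 0 on both arrays (background 26.8%), among them TOD6 with -0.15 and -0.15. Only 1 was above 0 on both (background 14.0%): TOR1, a growth-controlling kinase of 7413 bp, with 0.11 and 0.14.

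**Figure D4:**
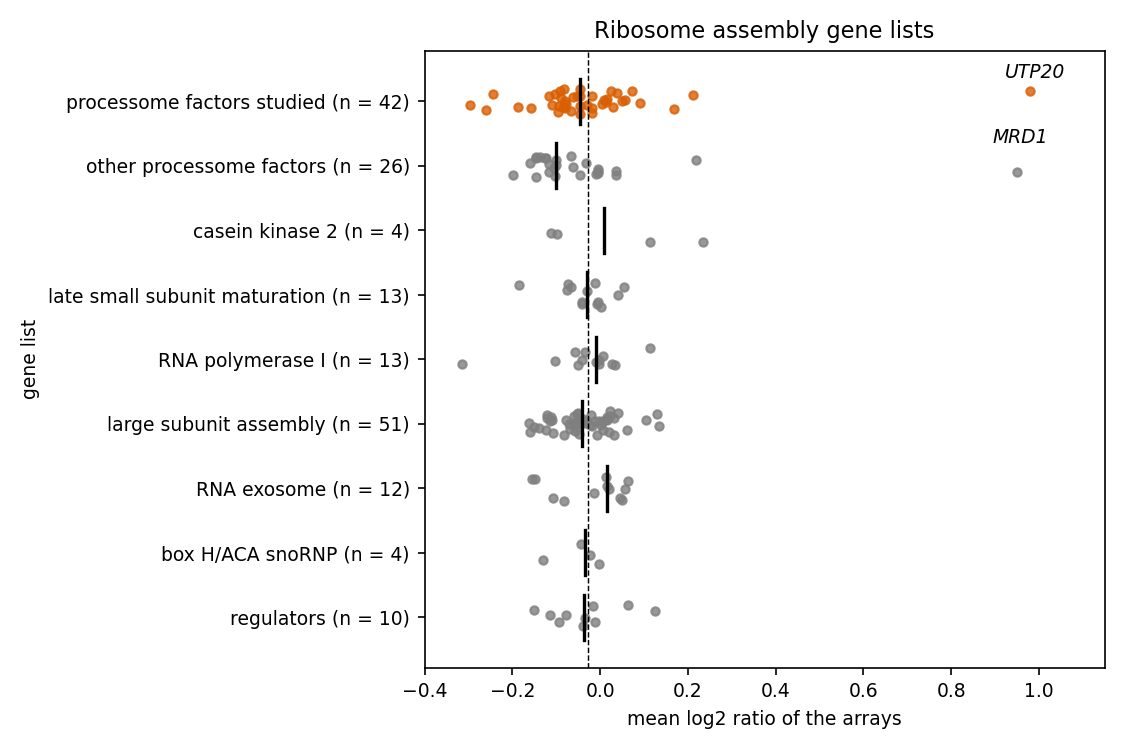
Mean log2 ratio of the arrays (x axis) for the genes of each list (y axis), 1 point per gene with scatter added along the y axis, a bar for the list's median and a dashed line for the median of all ORFs tested. UTP20 at 0.98 and MRD1 at 0.95 are the only points past the test, and the medians of the lists lie between -0.10 and 0.02.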

How the data were processed

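The authors deposited log2 ratios, 1 per ORF and array, from 2-colour arrays of Cy3- and Cy5-labelled cDNA, per the labels' protocols. The unit was read from the values. The sources used here do not state scanner, background correction, normalization, filter or ratio direction. The labels speak of 2 cultures and of more arrays than the 2 analysed here. After 2 control rows were left out, 6207 ORFs remained. Array 1 held 5552 values and array 2 held 5347. Spot intensities were not used here, and precision is limited by having 2 arrays.

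For each of 5311 ORFs, a two-sided moderated test of the mean ratio against 0 was made with lmFit and eBayes of limma 3.58.1 (R 4.3.3). Benjamini-Hochberg adjustment ran over all of them, with a threshold of 0.05. Prior degrees of freedom were 23.5. The fit was run on simulated data with independent arrays, drawn from its own fitted variances, which checks the code and not the calls. No dye term could be fitted with 1 residual degree of freedom. Members and lists were chosen with earlier results of these data known. All 42 members may be named. The values on both arrays go to UTP20, the 8 highest and 8 lowest others, the 4 with the largest gap between arrays and each module's extremes. UTP10, UTP11, SAS10 and IMP3 were added to these after their values were seen. Other lists give genes past the test and up to 2 more with the same sign on both arrays. These were taken from the highest down, by the smaller of the absolute values on the 2 arrays. Also named are the 5 longest tested genes, the nearest measured neighbours of UTP20 and strain genes. All symbols of members and lists matched the R64 annotation, whose gene lengths and order were used; no build is named for the array, so no coordinates are given. A planned promoter motif search was not run. Python 3.11.15 with pandas 2.3.3, scipy 1.17.1 and matplotlib 3.10.9 made the tables and plots. Alternatives were centring, scaling, turning array 1, either array alone, keeping ORFs measured once, dropping discordant ORFs, robust variances, thresholds of 0.01 and 0.1, and medians without UTP20.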

Additional observations from a re-analysis of the deposited data

How the results depend on the processing

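All alternatives were planned, and the causes of the changes were not tested. With array 1 turned, 0 genes and 0 members passed, UTP20 had 0.44 (limma adjusted p = 0.778), the UTP-A median was -0.026, 22 members were below 0 on both arrays and 13 were above 0 on array 1 and below 0 on array 2. In that reading uncalled means changed sign for BMS1 (-0.26), ECM16 (-0.10), IMP4 (-0.0082), NAN1 (0.00015), NOP14 (-0.10), PWP2 (-0.13), UTP13 (-0.026), UTP22 (0.31), UTP4 (-0.50), NOP56 (0.055), SAS10 (-0.25), SOF1 (-0.065), UTP10 (-0.019), UTP11 (-0.026), UTP15 (0.0070), UTP18 (0.036), CKB1 (0.066), NOP9 (0.0074), DYN1 (-0.043), HTA2 (0.14) and YBL005W-B (-0.27), and the calls of MRD1, FMP27 and BPH1 were lost. Among the genes named, NOP58 (0.0071), UTP6 (0.0059) and UTP30 (0.0073) changed sign with arrays centred, and SAS10 (-0.017) with arrays scaled. With robust variances 40 genes and 0 members passed, and UTP20, at 0.98, had a limma adjusted p of 0.195. Under the other fits UTP20 passed, with limma adjusted p from 4.16e-09 (centred) to 0.00163 (scaled), and the count over all genes ran from 41 to 54, or from 35 to 47 at thresholds of 0.01 and 0.1, which kept the call of UTP20. IRA1 passed with arrays centred and with discordant ORFs left out. Single arrays have no test: they gave UTP20 values of 0.54 to 1.42 and U3 particle medians of -0.089 to -0.024, and sign patterns cannot be formed from one. The other 41 members passed under none of the fits (lowest adjusted p 0.487). No paired analysis was possible because the 2 arrays form 1 group of ratios.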
